A study of Mus musculus with 9 samples.

Results

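The 9 genes described here make, load or recycle the inhibitory transmitters GABA and glycine (Gad1, Gad2, Slc32a1 and Slc6a5) or encode transcription factors of inhibitory neuron lineages (Pax2, Tfap2a, Tfap2b, Lhx1 and Lhx5). They were chosen by symbol from the 23360 genes listed for each library, and all 9 symbols were found. Their RNA was measured in mice, in total RNA freed of ribosomal RNA, in 9 libraries that form 3 groups of 3. A1G tumours are SHH medulloblastomas, cerebellar tumours with active Hedgehog signalling, from animals with the genotype Math1-cre;A1G;Ptch1+/- on a mixed strain background. Ptch1 tumours are medulloblastomas from Ptch1+/- animals, also of mixed strain, so both tumour groups are heterozygous for Ptch1, the Hedgehog receptor gene. The third group was cerebellum of wild-type adult C57BL/6 mice. The Math1 promoter, which drives the Cre recombinase, is active in the granule neuron lineage, an excitatory one. The series describes the A1G tumours as driven by ATOH1. The make-up of the A1G allele, the ages of the animals, and whether each library came from a separate animal are not given in the sources used here. P-values therefore speak of the spread from library to library, which may be technical. Strain and age may differ together with tissue in every comparison with cerebellum, and the labels do not say which 3 libraries shared a sequencing chip, so these cannot be told apart from the groups.

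Gad1 and Gad2 encode the enzymes that make GABA from glutamate. Slc32a1 encodes the transporter that loads GABA and glycine into synaptic vesicles, and Slc6a5 the transporter that takes glycine back into glycinergic terminals. In the mouse cerebellum all inhibitory neurons, the Purkinje cells, the molecular layer interneurons, the Golgi cells and the GABAergic nuclear neurons, descend from the ventricular zone, where progenitors express Ptf1a. The excitatory granule neurons, from whose progenitors SHH medulloblastoma arises, descend from the rhombic lip and express Atoh1. Tfap2a and Tfap2b, AP-2 family factors, are expressed downstream of Ptf1a in GABAergic precursors, Lhx1 and Lhx5, LIM homeodomain factors, in differentiating Purkinje cells, and Pax2, a paired box factor, in interneuron precursors.

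Promoter letters are shown for the pair of AP-2 genes, for Lhx1 and for Slc32a1, because these members took different courses in the tumours. Each window holds the 250 bases before a gene start in RefSeq on build GRCm38.p6, read on the gene's own strand. The windows lie at chr13:40734921-40735170 on the minus strand for Tfap2a, chr1:19211804-19212053 on the plus strand for Tfap2b, chr11:84525535-84525784 on the minus strand for Lhx1 and chr2:158610508-158610757 on the plus strand for Slc32a1. Those of Tfap2a and Tfap2b lie within the annotated gene but outside its exons, that of Lhx1 touches the annotated gene by 1 base, and that of Slc32a1 lies outside the annotated gene. Tfap2a has another window, not shown. Capitals mark TAATTA, a core that homeodomain factors bind.
Tfap2a promoter: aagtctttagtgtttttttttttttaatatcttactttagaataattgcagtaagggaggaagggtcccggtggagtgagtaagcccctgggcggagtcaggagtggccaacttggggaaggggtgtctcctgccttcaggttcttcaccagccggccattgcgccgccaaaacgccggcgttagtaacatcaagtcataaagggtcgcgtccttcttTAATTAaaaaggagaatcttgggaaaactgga
Tfap2b promoter: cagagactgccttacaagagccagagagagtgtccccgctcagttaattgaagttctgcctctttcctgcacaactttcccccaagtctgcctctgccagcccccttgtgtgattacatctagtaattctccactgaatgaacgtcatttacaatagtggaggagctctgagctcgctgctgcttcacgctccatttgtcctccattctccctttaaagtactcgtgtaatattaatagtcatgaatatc
Lhx1 promoter: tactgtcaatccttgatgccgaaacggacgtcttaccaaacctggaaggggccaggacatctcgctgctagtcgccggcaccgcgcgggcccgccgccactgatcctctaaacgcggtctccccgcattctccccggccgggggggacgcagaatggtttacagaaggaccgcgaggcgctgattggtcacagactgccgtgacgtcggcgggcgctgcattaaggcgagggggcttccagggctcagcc
Slc32a1 promoter: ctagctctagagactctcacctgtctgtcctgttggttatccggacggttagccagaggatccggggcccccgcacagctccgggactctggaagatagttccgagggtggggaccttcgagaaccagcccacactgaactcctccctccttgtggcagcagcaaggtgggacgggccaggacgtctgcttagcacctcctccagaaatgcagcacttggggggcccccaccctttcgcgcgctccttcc

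Of these 4 windows, the one of Tfap2a held TAATTA. The other Tfap2a window, not shown, had a GC content of 60.4% and did not hold that core. Over all 32851 RefSeq windows of this length, 4.84% held it. The AP-2 motif GCCNNNGGC, where N is any base, was in none of the 4 windows and in 13.7% of all windows. Both motifs read the same on both strands and do not overlap each other here. Of the 9 members, 8 had windows, 12 in all, and the AP-2 motif lay in windows of 2 members, Gad2 and Pax2. GC content was 47.6% for Tfap2a, 46.4% for Tfap2b, 64.8% for Lhx1 and 62.4% for Slc32a1, beside a median of 52.4% over all windows. A match is a description of letters and not of binding.

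Levels are given as counts-per-million (CPM), the fragments of a gene divided by the depth of the library after TMM scaling over all 9 libraries. Depth was 2350941 to 3049987 fragments in the A1G libraries, 2699234 to 9290237 in the Ptch1 libraries and 3304042 to 5300936 in the cerebellum libraries. Where a library had no fragment of a gene, its level was bounded by a floor of 3 fragments, 0.336 to 1.23 CPM across libraries, which covers counting error only. Fold changes are on the log2 scale with their standard error (SE). The test is the quasi-likelihood test of edgeR, and its p-values carry a Benjamini-Hochberg adjustment for the 14337 genes tested. A gene is called where the adjusted p is under 0.05. Of the 9 members, 8 had at least 1 FPKM (fragments per kilobase and per unit of depth) in at least 3 libraries and were tested. Pax2 was not. Slc6a5 and Tfap2b reached 1 FPKM in cerebellum libraries alone, so these had to stand higher there. Gad2, Slc32a1 and Lhx5 reached it in fewer than 3 tumour libraries and passed only with those of cerebellum. Their entry thus rested on the group where they were high. These are bulk tissues, in which fewer cells of a type and less RNA per cell cannot be told apart.

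The GABA-making enzymes were far lower in both tumour kinds than in cerebellum. Gad1 (chr2:70553072-70602014, plus strand, mm10) stood at 14.7, 3.73 and 36.5 CPM in A1G tumours, at 0.913, 0.224 and 2.29 CPM in Ptch1 tumours and at 258, 293 and 238 CPM in cerebellum. The 3 groups did not overlap, and in proportion to their mean the A1G libraries differed among themselves by more than those of cerebellum. The A1G mean was 6.96% and the Ptch1 mean 0.435% of the cerebellum mean. Gad1 fell by 3.86 in A1G tumours relative to cerebellum (SE 0.66, adjusted p = 8.69e-04 by edgeR). In Ptch1 tumours it fell by 8.20 (SE 0.86, adjusted p = 2.02e-05). Without A1G replicate 3 the first difference was -4.85. Without Ptch1 replicate 2 the second was -7.43, and without Ptch1 replicate 3 it was -9.02.

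Gad2 (chr2:22622205-22693874, plus strand) stood at 4.41, 8.40 and 6.56 CPM in A1G tumours, at 2.51, 1.12 and 3.06 CPM in Ptch1 tumours and at 101, 90.4 and 106 CPM in cerebellum. Again the 3 groups did not overlap, and the libraries of each group lay closer together than for Gad1. It fell by 3.93 in A1G tumours (SE 0.39, adjusted p = 1.78e-05 by edgeR) relative to cerebellum, and it fell by 5.58 in Ptch1 tumours (SE 0.43, adjusted p = 2.07e-06). Gad2 reached 1 FPKM in 2 A1G libraries and 0 Ptch1 libraries, so it passed the filter only with cerebellum libraries. Gad1 carries an antisense gene, Gad1os, on its other strand, and reads of the pair cannot be told apart since the sources used here do not give the counting strand. Gad1 and Gad2 transcripts share no run of 50 bases, while 1.45% of such runs in Gad1 also occur in the pseudogene Gad1-ps.

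**Figure D1:**
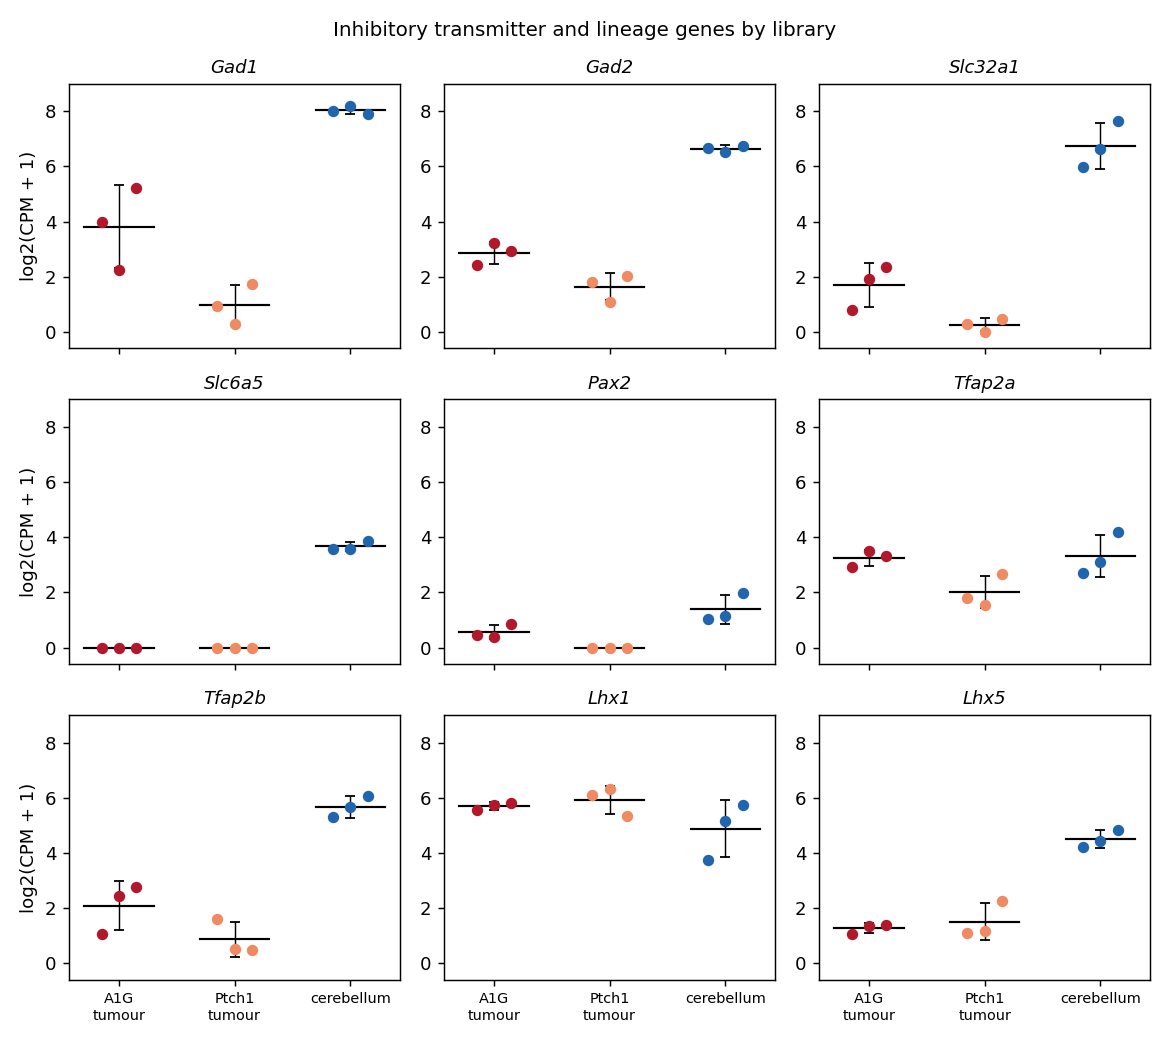
Level of each of the 9 genes in every library on a log2(CPM + 1) scale, with A1G tumours, Ptch1 tumours and cerebellum from left to right, points for libraries, lines for the means and bars for 1 SD (n = 3). Gad1, Gad2 and Slc32a1 stand apart in all 3 groups, Slc6a5 is at 0 in all 6 tumour libraries, and Lhx1 overlaps between the groups.

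The vesicular transporter followed the same order. Slc32a1 (chr2:158610767-158615748, plus strand) stood at 0.735, 2.80 and 4.10 CPM in A1G tumours, at 0.228, 0 and 0.382 CPM in Ptch1 tumours and at 61.6, 99.2 and 197 CPM in cerebellum. The Ptch1 libraries held 2 fragments of it in all, against 1552 in cerebellum. No 2 groups overlapped, and cerebellum replicate 3 was the highest library by far. The gene reached 1 FPKM in 2 A1G libraries and 0 Ptch1 libraries, so it passed the filter only with cerebellum libraries. Slc32a1 fell by 5.55 in A1G tumours relative to cerebellum (SE 0.63, adjusted p = 5.01e-05 by edgeR). In Ptch1 tumours the test gave an adjusted p of 5.12e-06, and the pooled level was 1018-fold lower, with a 95% interval of 281 to 8414 that covers counting error only. Without cerebellum replicate 3 the A1G difference was -4.96. The Ptch1 difference, -9.52 in the fit, was -8.92 without cerebellum replicate 3, -8.53 when Ptch1 replicate 2 was left out and -10.12 when Ptch1 replicate 3 was. The antisense gene Gm14205 overlaps Slc32a1 and could share its reads.

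Slc6a5, the glycine transporter (chr7:49910146-49963856, plus strand), had 0 fragments in each of the 6 tumour libraries, and 11.0005, 10.9 and 13.5 CPM in cerebellum. It was at least 10.9-fold lower in A1G tumours and at least 16.4-fold lower in Ptch1 tumours, with the floor taken per library. The bounds differ because the libraries differ in depth. The adjusted p was 7.90e-04 for A1G tumours and 3.24e-04 for Ptch1 tumours by edgeR. Slc6a5 reached the level for testing in cerebellum alone, so it had to stand higher there.

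Among the lineage factors, Pax2 (chr19:44756045-44837871, plus strand) was scarce everywhere. It had 1, 1 and 2 fragments in the A1G libraries, 0 in each Ptch1 library, and 4, 4 and 15 in the cerebellum libraries. These are 0.367, 0.311 and 0.820 CPM in A1G tumours, none in Ptch1 tumours, and 1.05, 1.21 and 2.99 CPM in cerebellum. The pooled level was 3.97-fold lower in A1G tumours than in cerebellum, with a 95% counting interval of 1.36 to 15.8, and at least 2.42-fold lower in Ptch1 tumours. Both tumour groups lay under the floor, so no fold is given between them.

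The AP-2 genes parted. Tfap2a (chr13:40715302-40738376, minus strand) stood at 6.61, 10.3 and 9.02 CPM in A1G tumours, at 2.51, 1.90 and 5.35 CPM in Ptch1 tumours and at 5.50, 7.58 and 17.1 CPM in cerebellum. A1G tumours overlapped with cerebellum, and Ptch1 tumours lay under both. The difference was -0.23 in A1G tumours relative to cerebellum (SE 0.56, adjusted p = 0.783 by edgeR). Without cerebellum replicate 3 it was 0.42. In Ptch1 tumours Tfap2a fell by 1.70 (SE 0.59, adjusted p = 0.0352). That call was lost in 6 of 18 alternative fits, among them the one without cerebellum replicate 3, where the difference was -1.06 (adjusted p = 0.211). The difference between the tumour kinds in Tfap2a was itself not called, at 1.47 (SE 0.59, adjusted p = 0.405). In the annotation 3 antisense genes lie on the other strand of Tfap2a.

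Tfap2b (chr1:19208914-19238576, plus strand) stood at 1.10, 4.35 and 5.74 CPM in A1G tumours, at 2.06, 0.448 and 0.382 CPM in Ptch1 tumours and at 38.2, 49.4 and 66.7 CPM in cerebellum. All tumour libraries lay under all cerebellum libraries, while the tumour kinds overlapped. Tfap2b reached the level for testing in cerebellum alone, so it had to stand higher there. It fell by 3.78 in A1G tumours (SE 0.60, adjusted p = 5.36e-04 by edgeR) relative to cerebellum, and it fell by 5.73 in Ptch1 tumours (SE 0.68, adjusted p = 4.56e-05). Without Ptch1 replicate 1 the second difference was -6.81. Tfap2a and Tfap2b share no run of 50 bases.

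The LIM homeodomain genes parted too. Lhx1 (chr11:84518284-84525535, minus strand) stood at 45.9, 52.9 and 54.5 CPM in A1G tumours, at 67.8, 77.9 and 39.7 CPM in Ptch1 tumours and at 12.3, 34.6 and 52.8 CPM in cerebellum. Its mean was 154% of that of cerebellum in A1G tumours and 186% in Ptch1 tumours, but both groups overlapped with cerebellum, whose libraries spread widely. The difference was 0.62 in A1G tumours (SE 0.44, adjusted p = 0.311 by edgeR) and 0.90 in Ptch1 tumours (SE 0.44, adjusted p = 0.121). Without cerebellum replicate 3 the Ptch1 difference was 1.41 and was called (adjusted p = 0.0305).

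Lhx5 (chr5:120431699-120441223, plus strand) stood at 1.10, 1.55 and 1.64 CPM in A1G tumours, at 1.14, 1.23 and 3.82 CPM in Ptch1 tumours and at 17.5, 20.6 and 27.7 CPM in cerebellum. The tumour kinds overlapped, and all tumour libraries lay under cerebellum. The gene reached 1 FPKM in 0 A1G libraries and 1 Ptch1 library, so it passed the filter only with cerebellum libraries. Lhx5 fell by 3.91 in A1G tumours (SE 0.58, adjusted p = 3.51e-04 by edgeR) and it fell by 3.52 in Ptch1 tumours (SE 0.55, adjusted p = 3.47e-04). Without Ptch1 replicate 3 the second difference was -4.17. Lhx1 and Lhx5 share no run of 50 bases, and the antisense gene Gm27199 overlaps Lhx5.

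**Figure D2:**
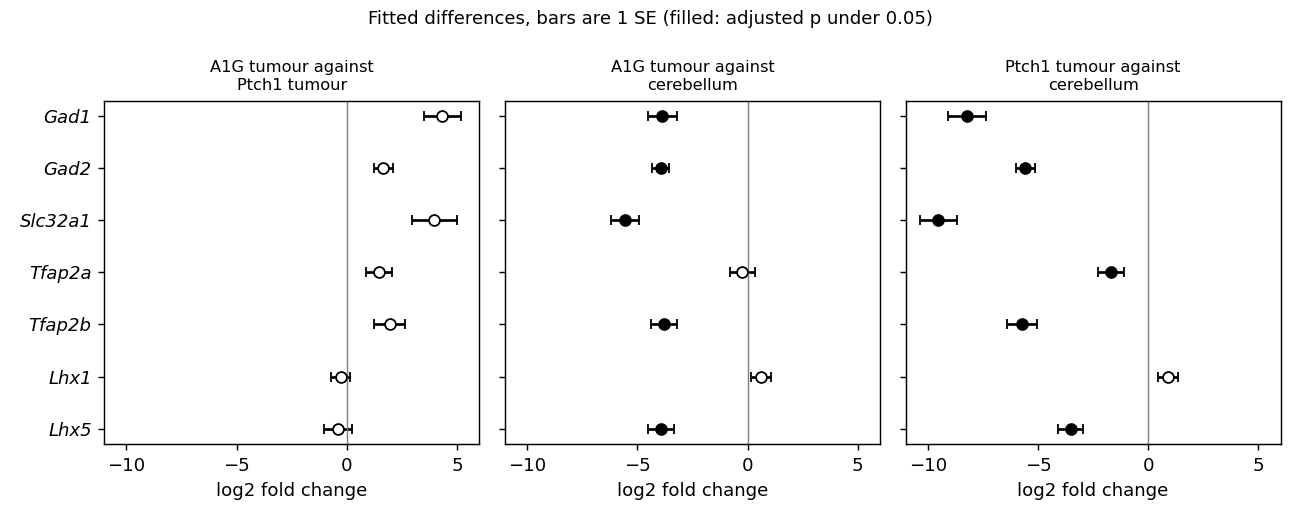
Fitted log2 fold changes for 7 of the genes in the 3 comparisons, with bars of 1 SE and filled points where the adjusted p is under 0.05. Slc6a5, without a tumour fragment, and Pax2, not tested, are left out. Open points in the left panel show that no member was called between A1G and Ptch1 tumours, and Lhx1 stands right of 0 and open in both comparisons with cerebellum.

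By count, 6 of the 8 tested members were called lower in A1G tumours than in cerebellum and 0 higher, where 32.4% of all tested genes were called and 16.1% were called lower. In Ptch1 tumours 7 of 8 were called lower and 0 higher, where 40% of all tested genes were called and 19.7% were called lower. Slc6a5 and Tfap2b, which reached 1 FPKM in cerebellum libraries alone, are among both counts. For these 2 the filter fixed that they were lower in tumours. Gad2, Slc32a1 and Lhx5, also among both counts, passed the filter only with cerebellum libraries. Their entry thus rested on the group where they were high. Of the members called lower, only Gad1 and Tfap2a reached 1 FPKM in at least 3 tumour libraries. The counts carry that limit. Both comparisons share the cerebellum libraries. The libraries of the same members did not overlap with cerebellum, 6 of 8 in A1G tumours and 7 of 8 in Ptch1 tumours, all lower. The same limit of the filter holds for these counts. Of tested genes, 23.4% and 27% stood apart in that direction.

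Ratios of related genes within a library do not depend on the scaling between libraries. Lhx1 had 41.7, 34.0 and 33.3 fragments for each one of Lhx5 in A1G tumours, 59.4, 63.2 and 10.4 in Ptch1 tumours, and 0.701, 1.68 and 1.91 in cerebellum. Tfap2a had 6.00, 2.36 and 1.57 fragments for each one of Tfap2b in A1G tumours, 1.22, 4.25 and 14.0 in Ptch1 tumours, and 0.144, 0.153 and 0.257 in cerebellum. These ratios rest on few fragments, with 3, 14 and 14 of Tfap2b in A1G tumours and 9, 4 and 1 in Ptch1 tumours, and with 3, 5 and 4 of Lhx5 in A1G tumours and 5, 11 and 10 in Ptch1 tumours. In both pairs every tumour library lay above every cerebellum library. On the log2 scale the mean ratio of Lhx1 to Lhx5 was higher by 4.79 in A1G tumours and by 4.70 in Ptch1 tumours, and that of Tfap2a to Tfap2b by 3.98 and 4.55. Each of these had p = 0.1 in an exact two-sided permutation test, the smallest that 3 against 3 libraries allow, and 0.18 after adjustment over the 9 ratio comparisons made.

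Gad1 had 3.33, 0.444 and 5.56 fragments for each one of Gad2 in A1G tumours, 0.364, 0.200 and 0.750 in Ptch1 tumours, and 2.54, 3.24 and 2.25 in cerebellum. Gad1 was the more abundant of the pair in counts in cerebellum and the less abundant in Ptch1 tumours, while the A1G libraries spanned both. The mean log2 ratio in Ptch1 tumours differed from that in cerebellum by -2.80 (exact permutation p = 0.1, adjusted 0.18). The Ptch1 ratios rest on 12 fragments of Gad1 and 29 of Gad2.

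**Figure D3:**
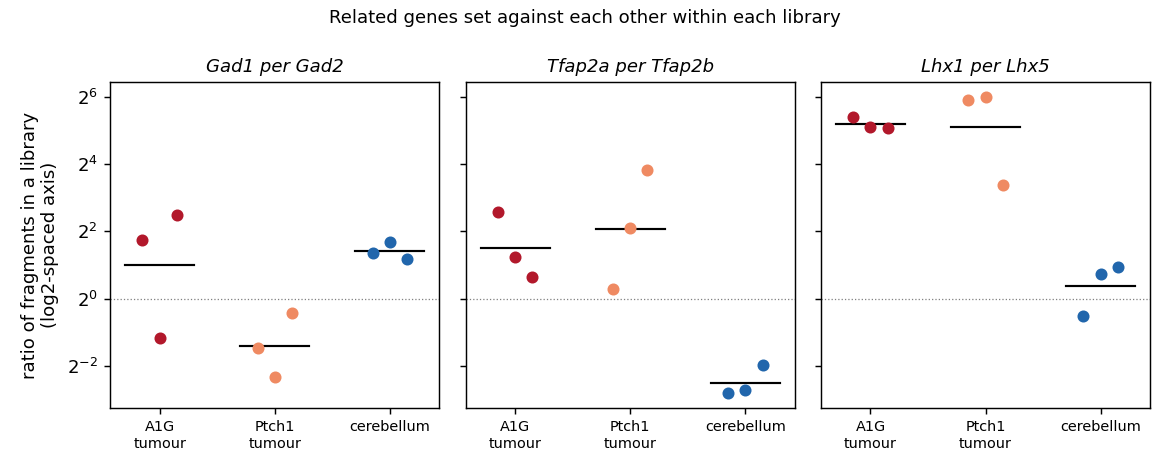
Fragments of one gene for each fragment of its relative within a library, on a log2-spaced axis, for Gad1 per Gad2, Tfap2a per Tfap2b and Lhx1 per Lhx5, with A1G tumours, Ptch1 tumours and cerebellum from left to right, points for libraries and lines for the mean of the logs. For the AP-2 and LIM homeodomain pairs the 6 tumour libraries lie above the 3 cerebellum libraries.

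Per length, the order of the levels within a group differed between tumours and cerebellum. In A1G tumours Lhx1 led at 20.2 ± 1.83 FPKM, ahead of Gad1 at 6.03 ± 5.44 FPKM and Tfap2a at 3.27 ± 0.736 FPKM (SD, n = 3 each). Gad1 and Tfap2a overlapped. In Ptch1 tumours Lhx1 led at 24.0 ± 7.38 FPKM, and the next, Tfap2a, stood at 1.22 ± 0.704 FPKM, overlapping with Lhx5 at 0.813 ± 0.609 FPKM. In cerebellum Gad1 led at 84.2 ± 7.98 FPKM, ahead of Slc32a1 at 44.6 ± 26.4 FPKM, Gad2 at 17.8 ± 1.59 FPKM and Lhx1 at 12.7 ± 7.77 FPKM, and the last pair overlapped. Pax2 was lowest there at 0.603 ± 0.374 FPKM. FPKM values of tumours and cerebellum were scaled separately by the authors, so the order above compares them between genes of a group alone. The filter and the limma alternatives use them across groups.

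Between A1G and Ptch1 tumours no member was called, where 0.0139% of all tested genes, 2 of 14337, were called. Without adjustment, 5 of 8 tested members had p under 0.05, all higher in A1G tumours, where 10.6% of tested genes did in either direction and 5.65% as higher. Slc6a5, with 0 fragments in all 6 tumour libraries, is among these 8 and could not differ between the tumour kinds. Some marker lists leaned toward A1G tumours too, with 8 of 12 Purkinje cell, 4 of 8 oligodendrocyte and 4 of 9 astrocyte and Bergmann glia markers higher at an unadjusted p under 0.05. Of 11 interneuron markers 1 was higher, of 12 excitatory genes 2, and of 9 meningeal markers 0. Of 4 choroid plexus markers 1 was lower and 0 higher. The median log2 difference was 1.39 for Purkinje cell and 1.39 for oligodendrocyte markers, against 0.02 over all tested genes. It was 0.64 for interneuron, 0.45 for excitatory and 0.05 for astrocyte and Bergmann glia genes. For meningeal markers it was -0.34 and for choroid plexus markers -0.65. The part of these cells in the members' differences was not tested. The tumour kinds did not overlap for 4 of the 8 tested members, Gad1, Gad2, Slc32a1 and Tfap2a, all higher in A1G tumours, where 6.68% of tested genes stood apart in that direction and 15.5% in either. For Slc32a1 that separation rests on single fragments in Ptch1 libraries. DESeq2 called 3 of the members, Gad1, Gad2 and Slc32a1. Gad1 had the largest fitted difference of the tested members with fragments, 4.34 (SE 0.83, adjusted p = 0.179, unadjusted p = 1.88e-04 by edgeR). With 1 library left out it ran from 3.35 without A1G replicate 3 (adjusted p = 0.324) to 5.16 without Ptch1 replicate 3 (0.137), was 3.57 without Ptch1 replicate 2 (0.422), and was called in 1 such fit, without A1G replicate 2 (4.86, adjusted p = 0.0222). For Slc32a1 the difference was 3.97 (SE 1.01, adjusted p = 0.270), on 21 fragments in A1G tumours and 2 in Ptch1 tumours. It was 2.98 when Ptch1 replicate 2 was left out and 4.57 when Ptch1 replicate 3 was. Gad2 differed by 1.65 (SE 0.43, adjusted p = 0.272) and Tfap2b by 1.95 (SE 0.70, adjusted p = 0.373), or by 3.02 without Ptch1 replicate 1. Lhx1 differed by -0.28 (SE 0.43, adjusted p = 0.856) and Lhx5 by -0.39 (SE 0.62, adjusted p = 0.861), and Lhx5 by 0.26 without Ptch1 replicate 3.

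Other genes of GABA and glycine handling were lower in tumours than in cerebellum in part. Of 18 listed, 15 were tested. In A1G tumours 9 fell and 0 rose (median log2 difference -1.90, against 0.03 over all tested genes), and in Ptch1 tumours 12 fell and 0 rose (median -2.03, against 0). Slc12a5, the chloride exporter that makes GABA inhibitory in mature neurons, fell to 19.2 CPM in A1G tumours and, in Ptch1 tumours, 17.2 CPM, below the 440 CPM of cerebellum. Gabbr2, a GABA-B receptor subunit, fell to 15.2 CPM in A1G tumours and, in Ptch1 tumours, 15.03 CPM, below the 252 CPM of cerebellum. The GABA transporter gene Slc6a13 fell to 1.46 CPM in A1G tumours and, in Ptch1 tumours, 2.45 CPM, below the 14.5 CPM of cerebellum. Abat, which breaks GABA down, fell to 80.7 CPM in A1G tumours and, in Ptch1 tumours, 59.1 CPM, below the 428 CPM of cerebellum. Between the tumour kinds 0 of 15 were called and 1 had an unadjusted p under 0.05, as lower in A1G tumours. Slc38a1, a glutamine transporter, averaged 350 CPM in A1G tumours and, in Ptch1 tumours, 356 CPM.

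Regulators of the inhibitory lineage split. Of 15 listed, 8 were tested. In A1G tumours 2 rose and 1 fell relative to cerebellum, and in Ptch1 tumours 2 rose and 2 fell. Ptf1a, the factor that specifies the cerebellar GABAergic lineage, had 0 fragments in all 9 libraries. Skor2, a corepressor of Purkinje cells that reached the level for testing in cerebellum alone, fell to 0.448 CPM in A1G tumours and, in Ptch1 tumours, 0.127 CPM, below the 9.15 CPM of cerebellum. Foxp2, a forkhead factor, rose to 70.1 CPM in A1G tumours and, in Ptch1 tumours, 75.5 CPM, above the 12.7 CPM of cerebellum. Foxp1, its relative, rose to 115 CPM in A1G tumours and, in Ptch1 tumours, 125 CPM, above the 35.4 CPM of cerebellum. None of the 8 was called between the tumour kinds, 1 having an unadjusted p under 0.05, as higher in A1G tumours. Of 11 relatives of the member factors, 1 was tested. Lhx2, a LIM homeodomain factor, had 12.5 ± 5.98 CPM in A1G tumours and, in Ptch1 tumours, 25.5 ± 5.50 CPM, and 0 in cerebellum (SD, n = 3), at least 16.3-fold higher in A1G tumours and at least 33.3-fold higher in Ptch1 tumours. It reached the level for testing in tumours alone, so it had to stand higher there.

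Markers of Purkinje cells, interneurons, oligodendrocytes, and astrocytes with Bergmann glia were mostly lower in tumours, as the members were. The excitatory and meningeal lists were mixed, and most tested choroid plexus markers were not called. The part of any list in the results was not tested. All 12 Purkinje cell markers were called lower in both tumour kinds, with a summed level of 454 to 796 CPM in A1G tumours and, in Ptch1 tumours, 292 to 405 CPM, below the 9412 to 11919 CPM of cerebellum. Calb1, a calcium-binding protein of Purkinje cells, was the 1 marker called between the tumour kinds, at 17.3 ± 5.77 CPM in A1G tumours and, in Ptch1 tumours, 1.1997 ± 0.557 CPM (SD, n = 3 each), a difference of 3.81 (SE 0.40, adjusted p = 0.00629 by edgeR). That call was lost in 3 of 18 alternative fits, without Ptch1 replicate 2 (3.61, adjusted p = 0.111), with only the 2 tumour groups in the fit (0.449) and with limma at a pseudocount of 1 (0.0644). Pcp2, another Purkinje marker, was at 0 in every Ptch1 library. Of 11 tested interneuron markers 8 were lower in A1G tumours and 9 in Ptch1 tumours. Their sum was 128 to 345 CPM in A1G tumours and, in Ptch1 tumours, 101 to 200 CPM, below the 1050 to 1150 CPM of cerebellum. Pvalb, a calcium-binding protein of both cell types, averaged 16.5 CPM in A1G tumours and, in Ptch1 tumours, 9.85 CPM, below the 602 CPM of cerebellum.

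Oligodendrocyte markers, all 8 called lower in both tumour kinds, 1 of them (Opalin) tested through its cerebellum level alone, summed to 330 to 430 CPM in A1G tumours and, in Ptch1 tumours, 67.6 to 385 CPM, below the 7659 to 8169 CPM of cerebellum. Of 9 astrocyte and Bergmann glia markers 7 were lower in A1G tumours, and in Ptch1 tumours 7 were lower and 1 higher. Their sum was 714 to 1020 CPM in A1G tumours and, in Ptch1 tumours, 369 to 1293 CPM, below the 3469 to 4285 CPM of cerebellum. In the excitatory list 5 of 12 tested genes rose in each tumour kind, and 4 fell in A1G tumours and 3 in Ptch1 tumours. Sums overlapped, at 2541 to 5358 CPM in A1G tumours and, in Ptch1 tumours, 2872 to 4603 CPM, beside 4351 to 5771 CPM in cerebellum. Atoh1, the granule lineage factor, averaged 443 CPM in A1G tumours and, in Ptch1 tumours, 336 CPM, above the 8.78 CPM of cerebellum. Whether Atoh1 reads in A1G tumours include any from the A1G allele, whose make-up is not given, was not tested. Of 9 meningeal markers 4 fell in each tumour kind, with 1 higher in A1G tumours and 2 in Ptch1 tumours. Among these genes, 1 meningeal marker was tested through cerebellum alone and 1 excitatory gene through tumours alone. Of 4 tested choroid plexus markers, 1, Ttr, was lower in each, with list sums of 14.3 to 55.8 CPM in A1G tumours and, in Ptch1 tumours, 28.7 to 98.7 CPM, beside 73.7 to 2768 CPM in cerebellum. Opalin, of the oligodendrocyte list, was at 0 in all tumour libraries. Sst, of the interneuron list, was at 0 in all A1G libraries and had 4 fragments in Ptch1 tumours. It averaged only 2.12 CPM in cerebellum, so the floor bounds it at no more than at least 1.95-fold lower in A1G tumours. No melanocyte or brainstem marker reached the level for testing, with sums of at most 3.69 and 17.7 CPM in any library.

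**Figure D4:**
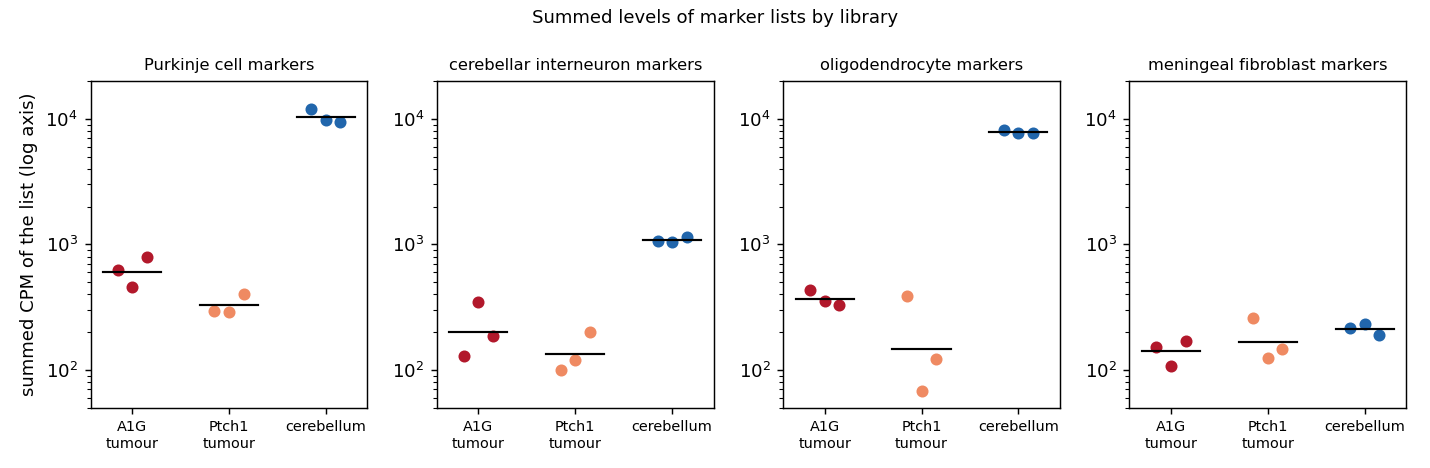
Summed CPM of 4 marker lists in every library on a log axis, with A1G tumours, Ptch1 tumours and cerebellum from left to right, points for libraries and lines for the mean of the logs. Purkinje cell, interneuron and oligodendrocyte sums of all tumour libraries lie under those of cerebellum, while the meningeal sums overlap between Ptch1 tumours and cerebellum.

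Within cerebellum, 8 of the 9 members were highest in replicate 3, and Gad1 in replicate 2. Replicate 3 held the highest value for 38.9% of all tested genes. Lhx1 was 4.29-fold, Slc32a1 3.20-fold, Tfap2a 3.11-fold and Pax2 2.85-fold higher in replicate 3 than in replicate 1, whereas Gad2 was 1.04-fold higher. Among A1G tumours Gad1 was lowest in replicate 2, while Gad2 and Tfap2a were highest there.

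The genes most like a member over the 9 libraries were ranked by Pearson's r of log2(CPM + 1), as a description, since the libraries fall into groups. For Gad1 they were Dgkg (r = 0.995), Gpr155 (0.990) and Slc4a4 (0.990), and 150 genes had r over 0.95. Those of Slc6a5, which separate cerebellum from tumours alone, were Resp18, Hhatl and Flt3, with 392 genes over 0.95. For Tfap2b they were Anks1b, Cnnm1 and Sorl1, with 282 such genes, and for Pax2, on few fragments, Pla2g4e, Pik3cb and Chpf, with 32. Lhx1 had 4 genes over 0.95, led by Ier2 (0.962), Fcf1 (0.956) and Nfix (0.955).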

How the data were processed

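RNA abundance was measured in 9 libraries of ribosome-depleted total RNA sequenced on an Ion Proton, 3 libraries per chip, per the labels. The submitters' processing notes name mm10 and Bowtie 0.12.2 without their role, and the quantification tool and counting strand are not given in the sources used here. Per the file headers, the deposited expected counts are raw fragments per gene, of which 1147 to 1440 per library were not whole, the deposited signal columns are those fragments times 1 scaling factor per library, and the deposited FPKM values were computed by the authors from scaled fragments, separately for tumours and cerebellum.

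Fragments were rounded and tested with edgeR 4.0.16 (quasi-likelihood, TMM over all 9 libraries, 1 mean per group), on the 14337 genes that reached an FPKM of 1 in 3 or more libraries, with Benjamini-Hochberg adjustment at 0.05. The edgeR fit was tested on simulated data. Alternatives used DESeq2 1.42.0 and limma 3.58.1 on log2(FPKM + 1) and log2(FPKM + 0.1), other scalings and filters, 2 groups alone, a replicate block, and each library left out. Python 3.11.15 with SciPy 1.17.1 and R 4.3.3 were used. Coordinates and overlaps are from GENCODE M21 on mm10. Replicates of a group had Spearman correlations of 0.887 to 0.968 across genes and their counts differed beyond sampling noise (chi-square divided by its degrees of freedom, 11.3 to 45.8). The members and the 12 other gene lists were chosen with earlier results of these data known. Genes named from a list are taken from those with up to 3 of its largest called changes per comparison, or, where none was called, the 2 most abundant, with Ptf1a also given, chosen with its values seen. The values of 1 listed gene are not reported here. The 3 genes with the highest r were named for Gad1, Slc6a5, Pax2, Tfap2b and Lhx1, leaving out predicted and code-named genes.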

Additional observations from a re-analysis of the deposited data

Results flagged for a closer look

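Lhx5 stood at 3.82 CPM in Ptch1 tumour replicate 3, far from the other 5 tumour libraries, whose highest value was 1.64 CPM. The gap was 0.802 of the whole range of the 6 libraries, over the critical value of 0.625 for 6 samples. Lhx5 had 10 fragments in that library, beside 3, 5 and 4 in the A1G libraries and 5 and 11 in Ptch1 replicates 1 and 2. The critical value does not allow for counting error at counts this low. Nominally, chance flags about 1 in 20 such sets, 8 genes were examined in this way, and these 6 libraries come from 2 groups of 3.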

How the results depend on the processing

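Of 414 values (23 member results under 18 alternatives), 399 kept their direction and their side of the threshold, 7 became called, 6 lost the call and 2 changed sign. The sign changed for Lhx5 between A1G and Ptch1 tumours without Ptch1 replicate 3 (0.26; range with a library left out -0.70 to 0.26) and for Tfap2a between A1G tumours and cerebellum without cerebellum replicate 3 (0.42; range -0.52 to 0.42). Tfap2a in Ptch1 tumours against cerebellum lost its call with limma at a pseudocount of 1 (-1.01, adjusted p = 0.0587) and of 0.1 (-1.48, 0.0570), and without Ptch1 replicate 1 (adjusted p = 0.107), Ptch1 replicate 2 (0.125), cerebellum replicate 2 (0.0532) or cerebellum replicate 3 (0.211). Between A1G and Ptch1 tumours, 2 genes were called, against 81 with no filter on low values, 163 with DESeq2, 0 with limma at a pseudocount of 1, 0 with only the 2 groups in the fit, and 0 to 4 with a library left out. The members called there were 0, against 2 (Gad1 and Slc32a1) with no filter, 3 with DESeq2 and 0 to 1 with a library left out. The cause was not tested. Against cerebellum 6 members were called in A1G tumours whichever library was left out, and 6 to 7 in Ptch1 tumours. Limma at a pseudocount of 1 gave smaller differences for low genes, as its construction does. Both limma fits against cerebellum also carry the authors' separate scaling of tumours and cerebellum. Scaling to total fragments put the median log2 difference of all genes at 0.12 between the tumour kinds and at 0.13 between A1G tumours and cerebellum. Between groups, the deviations of same-numbered libraries from their group means had correlations of -0.07 to 0.21. Differently numbered libraries were not set beside them, so whether replicate numbers pair the libraries cannot be told. With a replicate block, 2 genes and 0 members were called between the tumour kinds, 4456 genes and 6 members in A1G tumours against cerebellum, and 5595 genes and 7 members in Ptch1 tumours against cerebellum. Depth limits Slc6a5, Pax2 and Slc32a1 in tumours, where 0 to a few fragments were counted.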
